A study of Mus musculus with 6 samples.

Results

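The Ifi200 genes lie side by side on mouse chromosome 1 and encode interferon-inducible proteins that bind DNA. The 8 members described here, Aim2, Ifi209, Ifi207, Ifi204, Mndal, Ifi211, Ifi203 and Ifi205, were taken by symbol from the deposited table of 25124 gene symbols, with all 8 on chromosome 1. Transcripts were compared between 3 libraries of RAW264.7 cells labelled E4BP4 knockout and 3 libraries labelled Control. RAW264.7 cells resemble macrophages and grow as an established mouse line, and E4BP4 is a bZIP transcription factor encoded by Nfil3. Both groups were untreated and differed, as far as the labels say, only in the genotype. The sources used here do not give the method of knockout, whether a single clone was used, or whether replicates were separate cultures, so p-values measure the spread among these libraries alone, and that spread may be technical.

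Proteins of this family carry a HIN-200 domain that grips the DNA backbone, and most carry a pyrin domain that recruits partners. AIM2 senses DNA in the cytosol and, through the adaptor ASC, activates caspase-1 in an inflammasome, while p204, the product of Ifi204, has been linked to interferon induction through STING. The p202 protein, encoded by Ifi202b in the same cluster, has no pyrin domain and is known as an inhibitor of AIM2. Type I interferon raises most of these genes through response elements bound by STAT and IRF factors.

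The deposited headers gave 18.4 M to 23.3 M tags per library (M, mega). Values are TPM, read numbers scaled by transcript length and library. The Nfil3 level was 29.5, 29.9 and 31.0 TPM in the control libraries, and 105, 104 and 99.8 TPM in those labelled knockout, so the transcript was higher, not lower, under the knockout label. Its rise (log2 fold change 1.74, limma adjusted p = 4.96e-09) says nothing of the E4BP4 protein, and all directions given here rest on the labels. Of 8 macrophage markers 5 fell, 1 (Spi1) rose and 2 did not pass, beside 23.4% called lower and 26.7% higher over all genes tested. The summed level of the 8 was 1359 to 1434 TPM in the controls and 1148 to 1222 TPM in the other group. The largest change in this list was in Fcgr1, at −1.68 on the log2 scale. Its mean was 40.2 TPM in the controls and 11.8 TPM under the knockout label. Adgre1 and Itgam, also lower, stood at −0.55 and −0.17 on the log2 scale. Csf1r and Cd68 fell from 248.4 ± 7.70 to 159.2 ± 7.32 TPM and from 568.0 ± 46.5 to 450.1 ± 21.1 TPM (SD, n = 3 each), controls first. Of 21 markers of other cell types, 19 never exceeded 0.303 TPM, and the other 2, Zbtb46 and S100a8, did not pass. The part of these marker changes in the results below was not tested, and fewer cells with a transcript cannot be told apart from less transcript per cell.

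Sequence in front of the genes is shown first, and its part in any change of level was not tested. RefSeq promoter entries on GRCm38.p6, from 250 bases before to 50 bases after each annotated start, were present for 7 of the 8 members, with no entry used for Ifi204. The core of the interferon-stimulated response element, GAAA and GAAA separated by any 2 bases on either strand, occurred in 5 of these 7 members, against 3.44% of all 32851 promoter entries. The members with a match were Ifi207, Mndal, Ifi211, Ifi203 and Ifi205, and those without were Aim2 and Ifi209. The lines below give 60 bases around the match, 5′ to 3′ on the minus strand on which all 5 genes lie, with the match in capitals.
Ifi207: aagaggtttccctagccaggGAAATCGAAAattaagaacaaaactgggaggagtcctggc
Mndal: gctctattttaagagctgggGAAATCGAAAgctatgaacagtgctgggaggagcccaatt
Ifi203: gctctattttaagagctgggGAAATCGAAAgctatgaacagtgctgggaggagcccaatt
Ifi211: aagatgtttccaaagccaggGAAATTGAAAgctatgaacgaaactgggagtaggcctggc
Ifi205: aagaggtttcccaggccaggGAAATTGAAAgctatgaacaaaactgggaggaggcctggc
These windows lie at chr1:173741811-173741870, chr1:173880184-173880243, chr1:173942488-173942547, chr1:173913044-173913103 and chr1:174031850-174031909. The windows of Mndal and Ifi203 were identical over all 60 bases. Those of Ifi211 and Ifi205 shared 55 of 60 bases, and that of Ifi207 shared 53 with Ifi205 and 37 with Mndal. The 5 matches are therefore not independent of each other.

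The match began 41 bases before the annotated start in Ifi207, 36 before in Mndal, 37 before in Ifi211, 35 before in Ifi203 and 134 before in Ifi205. Ifi205 held another match 23 bases after its start, and a second entry of Mndal held one on the opposite strand. Of the listed genes of the cluster that are not members, Ifi208, Ifi213 and Ifi214 held the same 10 letters as Ifi207. Aim2 held none in its RefSeq entry. GENCODE M21 draws Aim2 from 173350879 to 173466040, and the sequence at that lower start was not searched. The Aim2 entry is printed for contrast (chr1:173420354-173420653, plus strand). Its only match to any motif searched, GAGGAAGT, a sequence bound by PU.1, is in capitals.
Aim2: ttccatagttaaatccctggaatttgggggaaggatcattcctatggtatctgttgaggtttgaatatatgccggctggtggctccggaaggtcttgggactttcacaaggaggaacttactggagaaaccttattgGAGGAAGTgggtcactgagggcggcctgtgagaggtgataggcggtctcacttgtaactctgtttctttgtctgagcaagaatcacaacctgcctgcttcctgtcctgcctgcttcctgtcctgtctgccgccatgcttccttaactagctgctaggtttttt
The other motifs were each searched on both strands. TTCNNNGAA is the STAT site GAS, and TTANGTAA, with N any base, is a loose pattern for the D-box bound by E4BP4. GGAA and GAAA separated by any 2 bases is an ETS-IRF site, which can overlap the response element core. GGGA and TTCC separated by any 2 bases is an NF-κB site. No member entry held TTANGTAA, which occurred in 2.32% of all entries, and Ifi209 held the NF-κB letters. Ifi202b, which is not a member, held 2 matches to TTANGTAA and 1 to TTCNNNGAA in the first 120 bases of its entry (chr1:173982975-173983094, minus strand), shown in capitals.
Ifi202b: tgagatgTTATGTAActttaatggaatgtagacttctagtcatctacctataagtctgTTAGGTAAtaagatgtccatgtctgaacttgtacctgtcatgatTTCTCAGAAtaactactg
A match to such letters is a description and not a measured binding site, and no match says only that the letters are not in that window.

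**Figure D1:**
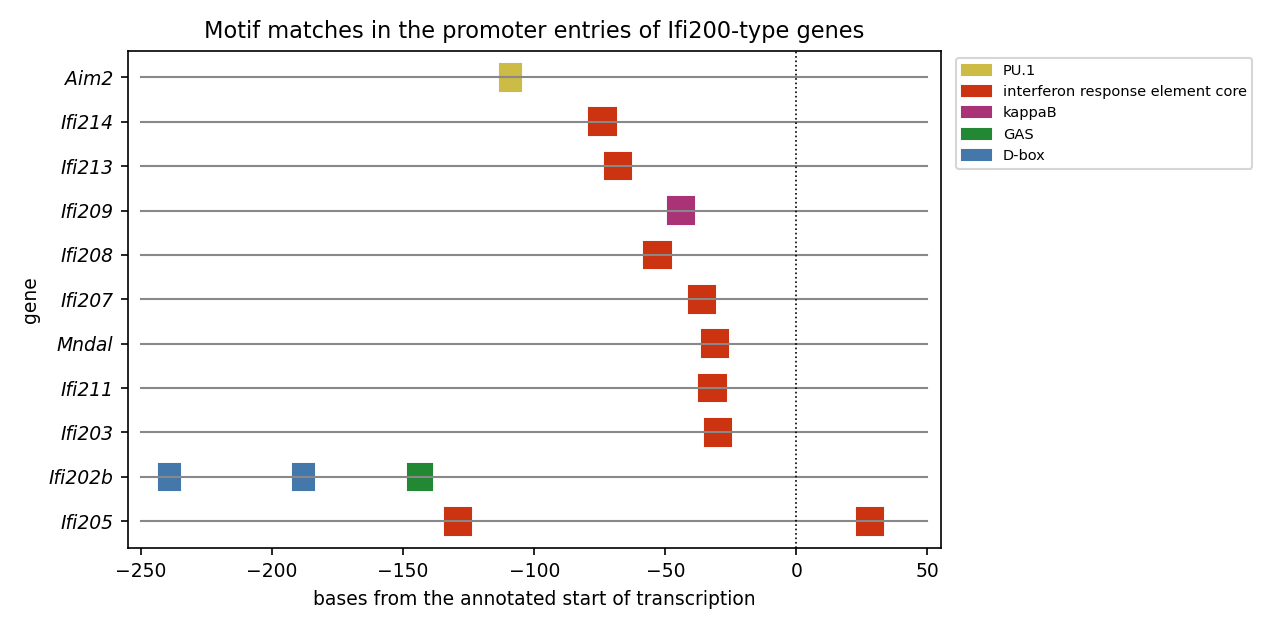
Motif matches in the RefSeq promoter entries of 11 Ifi200-type genes (rows, in chromosomal order; Ifi204 had no entry), by distance in bases from the annotated start of transcription (dotted line). For Mndal and Ifi203, which have 2 entries each, the entry with the match on the gene's own strand is drawn. The core of the interferon response element (red) lies 35 to 41 bases before the start in Ifi207, Mndal, Ifi211 and Ifi203, and is not in the entries of Aim2, Ifi209 and Ifi202b.

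The levels of the members spanned a wide range in the controls. Aim2 and Ifi207 were the most abundant, at 53.0 ± 2.16 and 50.2 ± 3.64 TPM (SD, n = 3), and their ranges overlapped. Mndal followed at 24.9 ± 0.861, Ifi203 at 15.5 ± 0.301, Ifi204 at 13.8 ± 0.919 and Ifi211 at 5.56 ± 0.240 TPM, with no overlap between neighbours in that order. Ifi209 at 0.306 ± 0.0341 and Ifi205 at 0.179 ± 0.0923 TPM were close to the detection limit, and their ranges overlapped. Under the knockout label the order was the same, and no neighbours overlapped.

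The 6 members from Aim2 to Ifi211 in that order were at or above 1 TPM in all 6 libraries and were tested on log2(TPM + 1) in limma together with all other expressed genes. Of these 6 members 5 fell under the knockout label and 1, Aim2, rose. Over all 11257 genes tested, 23.4% were called lower, 26.7% higher and 50.1% either way at an adjusted p under 0.05, so a call by itself was common. Groups that did not overlap were common too, at 27.2% of genes tested with the knockout label lower and 31.3% with it higher. The sizes were less so: Ifi204, Mndal, Ifi211 and Ifi203 had log2 fold changes below −1, a size reached by 1.20% of genes tested. The median log2 fold change of the 6 members was −1.18, beside 0.02 for all genes tested.

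Ifi204, which encodes the DNA sensor p204, had the largest change of the 6 tested members on the log2(TPM + 1) scale, though with 5 added Mndal and Ifi204 were level at −1.15. The control libraries held 12.9, 14.8 and 13.7 TPM of it, and those labelled knockout 2.92, 3.70 and 3.90 TPM. All 3 libraries labelled knockout lay below every control, and the means of 3.51 ± 0.514 and 13.8 ± 0.919 TPM differed 3.94-fold. The log2 fold change was −1.72 (SE 0.0901, limma adjusted p = 5.51e-07), a value that 0.231% of genes tested reached or passed downward. These levels rested on 103, 142 and 145 recovered reads under the knockout label and 465, 511 and 415 in the controls.

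Mndal and Ifi203 lie on either side of Ifi211 and have identical sequence around the response element. Mndal encodes a protein with both pyrin and HIN-200 domains. Mndal measured 8.76, 8.09 and 8.71 TPM under the knockout label and 25.2, 23.9 and 25.6 TPM in the controls. The groups were far apart compared with their spread, with a 2.92-fold difference of means and a log2 fold change of −1.45 (SE 0.0521, limma adjusted p = 5.96e-08). Ifi203 measured 6.77, 6.99 and 7.43 TPM under the knockout label and 15.2, 15.5 and 15.8 TPM in the controls. It fell 2.19-fold (log2 fold change −1.03, SE 0.0539, limma adjusted p = 5.51e-07), again without overlap. The ratio of Mndal to Ifi203 within a library was 1.61 ± 0.0570 in the controls and 1.21 ± 0.0751 under the knockout label (SD, n = 3 each), without overlap.

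Ifi211 was the least abundant member tested. Control libraries held 5.69, 5.28 and 5.70 TPM of it (159, 142 and 134 recovered reads), and those labelled knockout 2.01, 1.31 and 1.52 TPM (55, 39 and 44 reads). The means differed 3.44-fold without overlap, and the log2 fold change was −1.34 (SE 0.104, limma adjusted p = 7.22e-06). That value depends on the constant added before taking logs: it was −1.74 with 0.1 added and −0.68 with 5 added, and past the test with each.

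Ifi207 was the most abundant of the members that fell, and among the 5 its fall was the smallest on the log2(TPM + 1) scale, though not with 5 added, where Ifi203 and Ifi211 fell less, nor on the authors' log2 values, where Ifi211 did. It measured 26.4, 24.7 and 27.8 TPM under the knockout label and 47.4, 54.3 and 48.8 TPM in the controls. No control reached down to any library labelled knockout, and the means differed 1.91-fold (log2 fold change −0.91, SE 0.0612, limma adjusted p = 2.89e-06). Within a library Ifi204 stood at 0.275 ± 0.00482 of the Ifi207 level in the controls and at 0.134 ± 0.0203 under the knockout label (SD, n = 3 each), with no overlap. These 2 genes lie next to each other, with Ifi207 at 173723428 to 173741809 and Ifi204 at 173747294 to 173766919, both on the minus strand (mm10).

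Aim2, the inflammasome sensor, moved the other way. Its level was 52.4, 55.4 and 51.2 TPM in the control libraries, against 63.3, 66.7 and 65.4 TPM in those labelled knockout. The groups did not overlap, and the rise was small: the means of 65.1 ± 1.73 and 53.0 ± 2.16 TPM differed 1.23-fold, with a log2 fold change of 0.29 (SE 0.0425, limma adjusted p = 0.000370). It was larger in size than the change of 71.6% of genes tested. The log2 fold change stayed between 0.25 and 0.32 and past the test under each alternative run, 2 other scalings included.

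**Figure D2:**
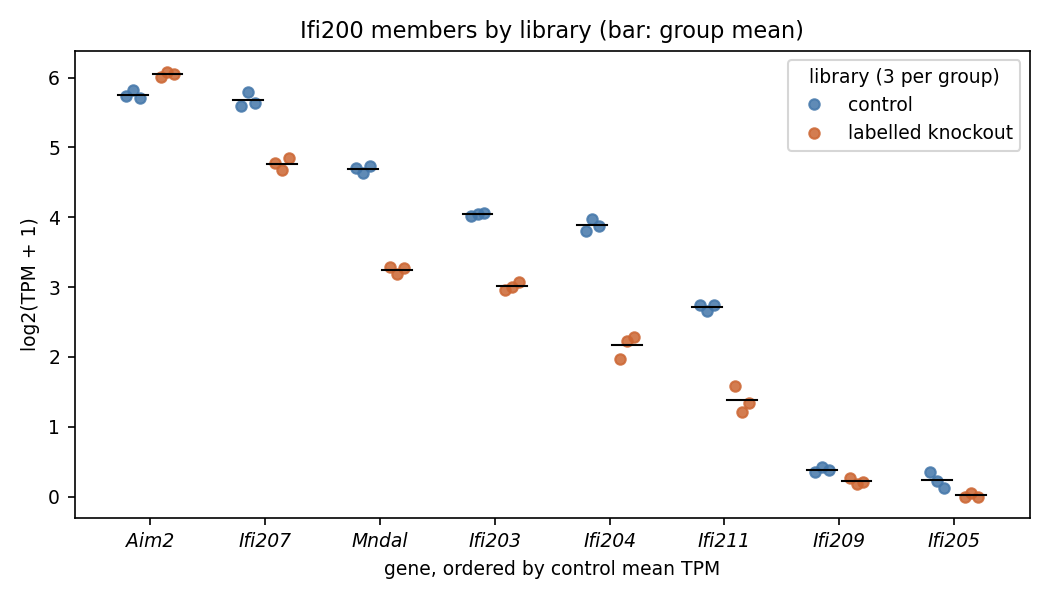
Level of each of the 8 members on the log2(TPM + 1) scale (vertical axis) in the 3 control libraries (blue) and the 3 libraries labelled knockout (orange), with bars at group means and genes ordered by control level. Aim2 is higher under the knockout label and the other members are lower, with no overlap of listed values. Such groups were common, at 27.2% of genes tested with the knockout label lower and 31.3% with it higher. For Ifi205 the values rest on 0, 1 and 0 reads under the knockout label and 7, 4 and 2 in the controls, too few to show separation.

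Ifi209 and Ifi205 did not reach the minimum of 1 TPM in any library and were not tested with the others. Ifi209 stood at 0.273, 0.341 and 0.303 TPM in the control libraries (15, 18 and 14 reads), against 0.205, 0.136 and 0.158 TPM in those labelled knockout (11, 8 and 9 reads). The ratio of summed reads per library size was 0.534 (95% exact interval 0.322 to 0.871, which covers counting error only). Ifi205 was listed at 0.277, 0.165 and 0.0940 TPM in the control libraries, against 0, 0.0370 and 0 TPM in those labelled knockout. That is 1 read against 13, a ratio of 0.0690 with a 95% exact interval from 0.00162 to 0.459, again of counting error only. A count of 0 reads of Ifi205 allows up to 0.121 TPM in replicate 1 and 0.115 TPM in replicate 3 of the libraries labelled knockout. Without the minimum, limma called both genes lower (adjusted p = 0.0170 for Ifi209 and 0.0298 for Ifi205). That fit called 2521 of 19482 genes lower and 2742 higher.

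The make-up of the 8 members therefore differed between the groups. Ifi202b and Ifi213 are not counted here, though Ifi202b averaged 76.3 TPM in the controls and 29.1 TPM under the knockout label. The 8 members summed to 159.3, 169.7 and 161.3 TPM in the controls and 110.3, 111.6 and 114.9 TPM under the knockout label. Aim2 held 32.4% ± 0.578 of that sum in the controls and 58.0% ± 1.53 under the knockout label (SD, n = 3 each). Ifi207 went from 30.7% ± 1.18 to 23.4% ± 1.14, Mndal from 15.3% ± 1.00 to 7.59% ± 0.346 and Ifi204 from 8.44% ± 0.296 to 3.12% ± 0.407. Without Aim2, the remaining 7 members summed to 110.4 ± 3.66 TPM in the controls and 47.2 ± 2.30 TPM under the knockout label.

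**Figure D3:**
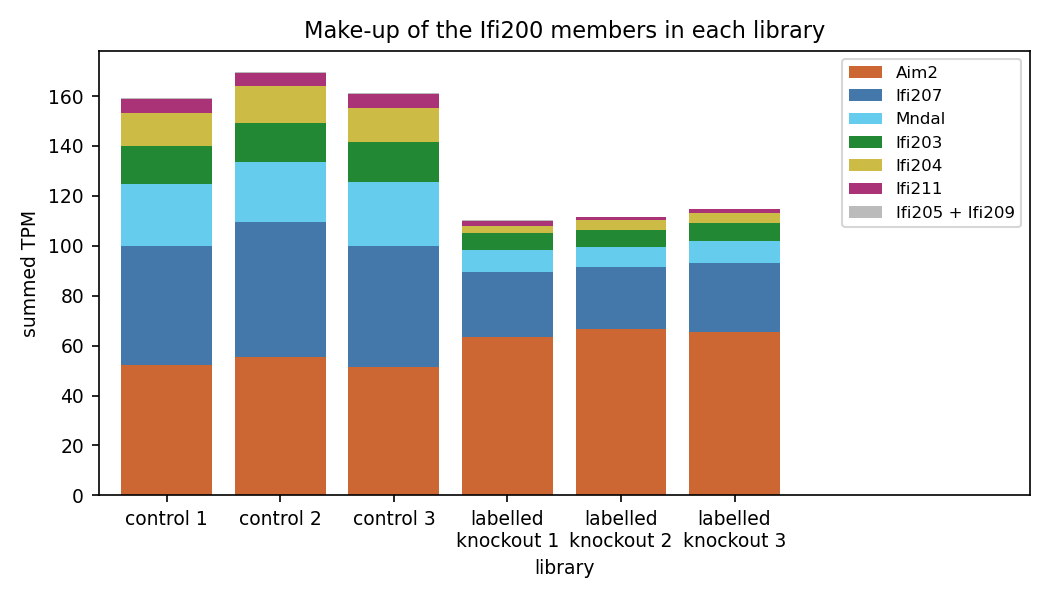
Summed TPM of the 8 members (vertical axis) in each of the 6 libraries, stacked by gene, with Ifi205 and Ifi209 too low to be seen. The Aim2 part at the bottom rises from 52.4, 55.4 and 51.2 TPM in the controls to 63.3, 66.7 and 65.4 TPM under the knockout label while every other visible part shrinks.

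Ifi202b and Ifi213, cluster genes outside the 8, were also tested and fell. Ifi202b, which encodes the AIM2 inhibitor p202, measured 28.6, 28.8 and 29.9 TPM under the knockout label and 79.0, 77.3 and 72.7 TPM in the controls, a 2.63-fold difference (log2 fold change −1.36, SE 0.0437, limma adjusted p = 4.36e-08). The ratio of Aim2 to Ifi202b was thus 0.695 ± 0.0286 in the controls and 2.24 ± 0.0682 under the knockout label (SD, n = 3 each), so that Ifi202b was the more abundant of the pair in all 3 controls and Aim2 in all 3 libraries labelled knockout. Ifi213 fell from 7.71 ± 0.494 to 5.54 ± 0.385 TPM (−0.41 on the log2 scale, limma adjusted p = 0.00101), on a transcript annotated as non-coding. Ifi208 and Ifi214 had at most 8 reads in any library.

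Along chromosome 1 the members span 173420604 to 174031755 in mm10, 611 kb, and the 12 genes listed in that span are all of the Ifi200 type. Aim2 lies at the low end, from 173420604 to 173466036 on the plus strand, and was the only one of the 8 tested genes of the cluster to rise. Ifi209 is the other member on the plus strand, at 173630859 to 173647928. Mndal (173857220 to 173880187), Ifi211 (173896341 to 173913046), Ifi203 (173920401 to 173942492) and Ifi205 (174011998 to 174031755) follow Ifi204 on the minus strand. The cluster stands alone: the 28 other genes listed within 500 kb on either side, olfactory receptors for the most part, never exceeded 0.0810 TPM, and 20 were at 0 in all 6 libraries. The nearest tested genes were Dusp23, 787.6 kb below, which did not pass (log2 fold change −0.18, limma adjusted p = 0.121), and Fh1, 1570 kb above, which did not pass either (−0.10, adjusted p = 0.0584). Farther out, the other 8 of the 10 tested genes nearest to the cluster, 5 on each side, passed. Of the 10 together, 6 were called lower and 2 higher, beside 23.4% and 26.7% of all genes tested. Slamf8 at 830.0 kb (−0.45), Opn3 at 1631 kb (−0.46) and Chml at 1650 kb (−0.72) were among the 6. The 2 higher genes were Slamf9 at 942.2 kb (0.45) and Cep170 at 2702 kb (0.18).

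**Figure D4:**
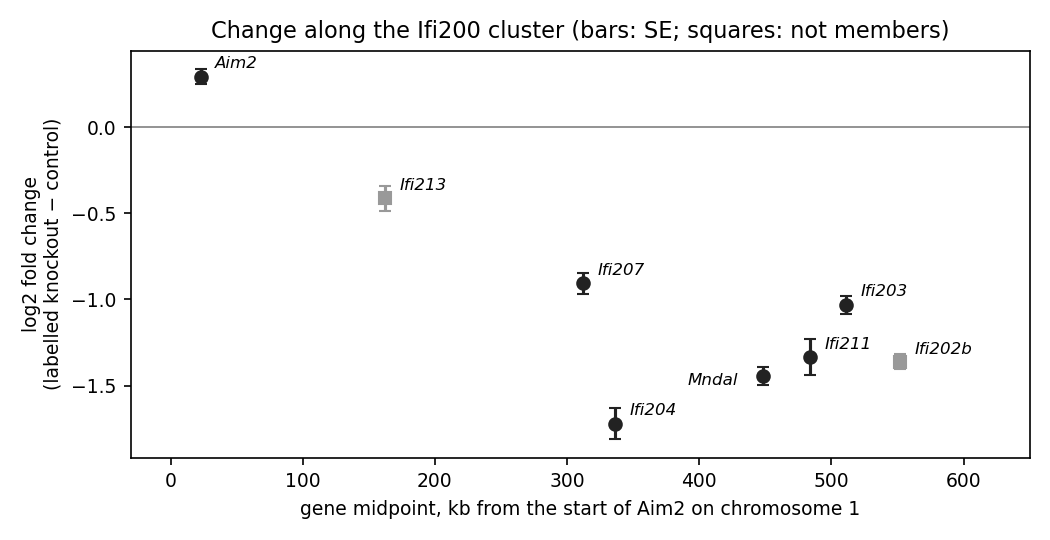
Log2 fold change with its SE (vertical axis, labelled knockout minus control) against the distance of each gene's midpoint from the start of Aim2 in kb, for the 6 members tested (circles) and 2 other genes of the cluster (squares). Aim2 at the left end is above 0 at 0.29, and all others are below, down to −1.72 for Ifi204.

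Reads of these genes cannot all be assigned to 1 gene. In GENCODE M21 transcripts, 72.9% of 50-base windows of the Ifi211 transcript occur exactly in a transcript of another gene, most often Ifi205. The share was 49.6% for Ifi205, 35.1% for Ifi209, 30.2% for Ifi204 and 27.2% for Mndal. It was lower for Ifi203 at 8.97%, Ifi207 at 7.18% and Aim2 at 0.789%, and 0 for Ifi202b. GENCODE also draws Mndal from 173849126 to 173942491, across Ifi211 and Ifi203 on the same strand. How reads that match several genes were counted is not given, so the levels of Ifi211, Ifi205, Ifi209, Ifi204 and Mndal are the less certain ones. The reference comes from C57BL/6J mice, RAW264.7 from another strain, and this cluster is known to vary between strains.

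The authors' deposited table gave the same directions, in part under older symbols and other transcripts. Its log2 fold changes were −1.98 for Ifi204, −1.83 for Ifi211 (as Mnda), −1.58 for Mndal, −1.10 for Ifi203, −0.95 for Ifi207 (as AI607873) and 0.28 for Aim2, each with an adjusted p of at most 2.87e-07 in the authors' deposited table. For the low members the authors' deposited table gave −3.72 for Ifi205 (adjusted p = 0.0430) and −0.86 for Ifi209 (as Pyhin1, adjusted p = 0.188).

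Genes from the interferon receptors to the STAT and IRF factors, with Socs3 and Usp18, were counted beside the shares over all genes tested. Those shares were 23.4% called lower and 26.7% called higher. The part of these genes in the changes of the Ifi200 family was not tested. Of 18 tested, 11 fell, 0 rose and 7 did not pass in limma, with a median log2 fold change of −0.19. In this list 0 also rose at an unadjusted p under 0.05 and in limma-voom on recovered reads. The list leaves out Irf3, which was counted with the DNA sensing genes below and is named after its values were seen. Irf3 rose from 24.2 ± 0.303 to 31.4 ± 0.900 TPM (0.36 on the log2 scale, limma adjusted p = 8.20e-05). Irf7, which amplifies interferon production, stood at 11.7, 13.6 and 13.7 TPM in the control libraries, against 4.26, 4.14 and 4.10 TPM in those labelled knockout (−1.43 on the log2 scale, limma adjusted p = 3.46e-07). Usp18, an interferon-induced brake on the receptor, fell by 1.15 on the log2 scale, and Irf5 and Irf8, myeloid IRF genes, by 0.68 and 0.39. Ifnar1, a receptor chain, did not pass and stood at 18.7 ± 0.517 TPM under the knockout label against 18.3 ± 0.416 TPM in the controls.

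Of 21 other genes tested in a list of DNA sensing and STING genes, 8 fell, 4 rose and 9 did not pass, with a median log2 fold change of −0.07. The 12 called stand beside 50.1% called over all genes tested, so the list as a whole shows no result of its own. Samhd1, which breaks down deoxynucleotides, fell from 67.5 ± 3.23 to 41.1 ± 1.30 TPM, and the kinase gene Ikbke and the DNA sensor gene Cgas fell by 0.63 and 0.57 on the log2 scale. Xrcc5, a subunit of the DNA end-binding Ku complex, rose from 19.9 ± 0.418 to 29.9 ± 0.342 TPM. Among genes chosen after their values were seen, Trex1, the exonuclease that clears cytosolic DNA, had the largest change at −1.25 (adjusted p = 1.13e-05), and Tmem173, which encodes STING, fell by 0.37 on the log2 scale (limma adjusted p = 0.000231).

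The next list held inflammasome genes, not of AIM2 alone, since Nlrp3, Nlrc4, Naip5 and Nlrp1b are also in it. Of 12 genes tested, 5 rose, 3 fell and 4 did not pass, with a median log2 fold change of −0.01. Over all genes tested 26.7% were called higher and 23.4% lower, so these counts too are read only gene by gene. Pycard, which encodes ASC, rose from 53.3 ± 1.91 to 66.5 ± 1.33 TPM (0.31 on the log2 scale, limma adjusted p = 0.000165). RAW264.7 cells have been reported to lack ASC protein, which a transcript level does not measure. Nlrc4, another inflammasome sensor, rose from 2.83 ± 0.349 to 7.35 ± 0.178 TPM, and P2rx7, the ATP-gated channel, and Txnip rose by 0.54 and 0.43 on the log2 scale. Casp1 and Gsdmd, the protease and the pore-forming protein downstream of AIM2, were chosen after their values were seen. They fell from 86.1 ± 5.04 to 66.3 ± 1.94 TPM and from 56.0 ± 0.716 to 46.0 ± 1.13 TPM, with limma adjusted p-values of 0.000183 and 0.000233.

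**Figure D5:**
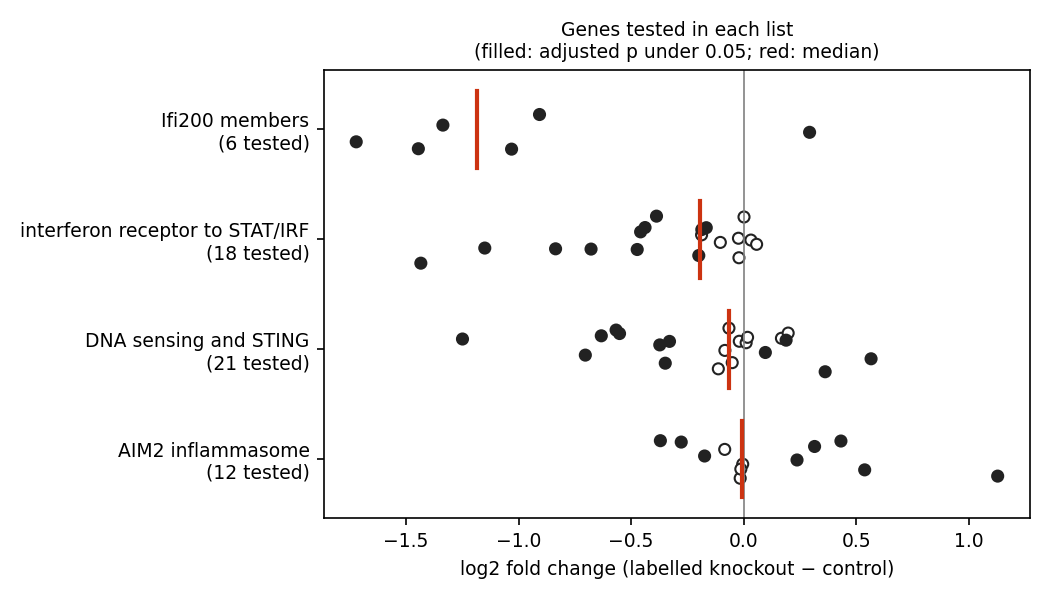
Log2 fold change (horizontal axis, labelled knockout minus control) of each tested gene in 4 lists (rows), filled where the limma adjusted p was under 0.05, with the list median in red. The medians are −1.18 for the Ifi200 members, −0.19 for interferon receptors to IRFs, −0.07 for DNA sensing and −0.01 for the inflammasome.

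Over the 6 libraries the mean log2(TPM + 1) of the 6 tested members was most like that of Fads2, Slc9a3r1, Mocos, Dhx58 and B3gnt2, with Pearson r of at least 0.9993. Such values follow mostly from the difference between the groups, and 376 of 11251 other genes reached an r of 0.99. The log2 fold changes of these 5 genes were −0.84, −1.21, −0.78, −0.99 and −0.89.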

How the data were processed

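Polyadenylated RNA of 6 libraries was sequenced from an NEBNext Ultra kit, per the labels' protocols. Tools named in the submitters' processing notes, without their roles, are STAR 2.7.5a, HOMER 4.11.1, bcl2fastq and DESeq2, with mm10 as the build. The authors deposited TPM values for 25124 symbols, each with 1 transcript and its mm10 coordinates. The other deposited table held the authors' log2 value of each gene in each library, and the log2 fold change of a comparison (headed WT vs. TG, with TG read here as the group labelled knockout) and its p-values. No source used here says whether strand entered the counting.

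Genes with a TPM of at least 1 in at least 3 of 6 libraries were kept, and log2(TPM + 1) was compared with limma 3.58.1 in R 4.3.3 with a mean-variance trend (two-sided, no covariates, Benjamini-Hochberg over 11257 genes, adjusted p under 0.05), a fit tested on simulated data. Fold changes on this scale understate the change of low genes. TPM times length came within 0.1 of a whole number of reads for 100% of values checked, and gave 15.6 M to 19.9 M recovered reads per library. These served for depth and for limma-voom. Replicates differed by more than sampling noise (chi-square per degree of freedom 1.74 to 5.50). Shared windows came from GENCODE M21 and promoters from RefSeq GRCm38.p6. All other listed genes of the cluster and within 500 kb were named or counted. In each pathway list the 4 genes with the smallest adjusted p were named, with some that did not pass, and the 5 genes most like the members were named. Other genes are marked in the text as chosen later. Members, lists and motifs were chosen with earlier results of these data known.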

Additional observations from a re-analysis of the deposited data

How the results depend on the processing

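The calls of 5 members lower and 1 higher were the same in 14 of 15 alternatives. With a TPM minimum of 5, Ifi204 and Ifi211 were kept through their control values alone, so their calls there add no support. Without a filter on low values 7 were lower and 1 higher, since Ifi205 and Ifi209 were then tested. That fit called 2521 of 19482 genes lower and 2742 higher. The alternatives were pseudocounts of 0.1 and 5, no filter, a TPM minimum of 5, upper-quartile and median-ratio scaling, limma-voom, limma on the authors' log2 values, a replicate block and each of the 6 libraries left out in turn. Log2 fold changes ranged from −1.997 to −1.15 for Ifi204, −1.57 to −1.09 for Mndal, −1.82 to −0.61 for Ifi211, −1.15 to −0.76 for Ifi203, −0.95 to −0.82 for Ifi207 and 0.25 to 0.32 for Aim2, with a highest adjusted p of 0.00251, for Aim2. With a library left out, genes called lower numbered 2254 to 2674 and higher 2478 to 2910. The replicate number as a block gave 5 members lower and 1 higher and changed no call of a member. Same-numbered libraries did not deviate together (correlations −0.0133, −0.0578 and 0.00302), so the numbers were not taken as pairs. The authors' row for Ifi213 is another transcript listed at 0, so that gene had no value there. Depth limits Ifi205 and Ifi209 most, with at most 18 reads per library.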

Other observations

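Of 5 tested genes of proteins reported to bind p204, 2 fell and 2 rose, beside 50.1% of all genes tested called either way, so the counts show nothing about these genes as a group. Ubtf, a factor of ribosomal RNA transcription, and Id2 fell by 0.29 and 0.26 on the log2 scale (limma adjusted p = 0.000342 and 0.000829). Id3 and Id1, which like Id2 encode inhibitors of helix-loop-helix factors, rose by 0.34 and 0.23 (limma adjusted p = 0.00100 and 0.00925), and the retinoblastoma gene Rb1 did not pass (adjusted p = 0.0808).

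Across the genome, 340 tested genes held the core of the interferon response element in a promoter entry, and 117 of them (34.4%) were called lower in limma, beside 23.8% of the 8777 tested genes that had an entry. Of the 340, 82 were called higher, and their median log2 fold change was −0.04, beside 0.02. Of 341 tested genes with GAGGAAGT, 30.8% were called lower (105 lower, 91 higher), and of 151 with TTANGTAA, 15.9% (24 lower, 45 higher). The share called lower was 24.2% of 706 with TTCNNNGAA (171 lower, 206 higher). It was 27.1% of 251 with the ETS-IRF letters (68 lower, 70 higher) and 20.1% of 149 with the NF-κB letters (30 lower, 43 higher). Over all 11257 genes tested 26.7% were called higher. These shares are descriptions, the Ifi200 genes are among the genes counted, and no test was run on them.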
